A study of Mus musculus with 16 samples.

Results

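Palbociclib and rapamycin act on the machinery that drives cells to divide and to grow, and the 4 groups of mice compared here allow the question whether the response of haematopoietic stem cells (HSCs) to one drug differs in the presence of the other. The measure is the interaction per gene, which is the log2 fold change of the combination over palbociclib minus the log2 fold change of rapamycin over vehicle. A positive value means that rapamycin gave a higher fold under palbociclib than alone, and, by the same arithmetic, that palbociclib gave a higher fold under rapamycin than alone. All 16 of the 16 libraries in the series enter this contrast, and 15308 of 50686 genes had enough counts to be tested.

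Each library held RNA of 10000 sorted HSCs in G0 or G1 from long-bone marrow of C57BL/6J mice. The combination group had received palbociclib at 30.4 mg/kg with rapamycin at 6.4 mg/kg, the palbociclib group 30.4 mg/kg of palbociclib, the rapamycin group 6.4 mg/kg of rapamycin, and the vehicle group the solvent alone, with 4 libraries in each. Injections into the peritoneum, 100 µL in a vehicle of 20% DMSO and 40% PEG 400 in saline, were repeated every 48 h over 85 days. Neither the age of the mice nor the number of mice behind the libraries is in the labels. The p-values therefore rest on how much libraries of 1 group differ, and some of that difference may be technical.

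Palbociclib blocks CDK4 and CDK6, the cyclin D partners that phosphorylate the retinoblastoma protein RB and thereby free E2F factors to switch on genes of DNA replication. Rapamycin binds the immunophilin FKBP12 and inhibits mTOR complex 1, the kinase complex that promotes protein synthesis, ribosome production and glycolysis when nutrients and growth signals are present. HSCs are mostly quiescent, and both pathways are known to bear on how they leave and return to that state.

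Total counts per library ran from 10133860 to 15328830. Of 40 HSC identity genes, 39 had enough counts to be tested. So did 19 of 19 neutrophil granule genes, 18 of 18 erythroid markers and 14 of 15 B cell markers. Having enough counts therefore does not show how pure the sorted cells were. Slamf1 (CD150), a receptor of the sort gate, had 14.1 to 60.4 TMM-scaled CPM, counts scaled to a common library size, across all 16 libraries. RNA of other blood cells was present in uneven amounts: neutrophil granule genes made up 0.903% to 10.1% of single libraries, and B cell and immunoglobulin genes 0.0252% to 9.29%. Vehicle 3, rapamycin 3 and vehicle 4 correlated least with the other libraries. In these bulk samples fewer cells of a type and less RNA per cell cannot be told apart.

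Across all genes the median interaction was close to 0, and the genes of smallest p had opposite responses to rapamycin with and without palbociclib. No gene passed edgeR's quasi-likelihood test of the interaction at an adjusted p of 0.05, 0 of 15308 or 0%, with a lowest adjusted p of 0.051. At an unadjusted p under 0.05 there were 868 genes, 5.67% of those tested, where 765 would be expected by chance. Of these, 503 (3.29% of tested genes) had positive and 365 (2.38%) had negative values. Both shares are the background for every count of list members at an unadjusted p under 0.05 given below. The interaction was positive in 50.7% of all genes, with a median of 0.0083. TMM scaling takes most genes as unchanged and so favours a median near 0. These values therefore cannot tell whether the contrast as a whole leaned either way. DESeq2 called 34 genes, 0.222% of those tested, of which 26 were positive and 8 negative, and 4 were immunoglobulin segments.

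The 868 genes are mostly a crossing of signs, which follows in part from selecting genes by the size of this difference. Among the 503 positive genes, 455 (90.5%) had a lower level with rapamycin than with vehicle and a higher level with the combination than with palbociclib, a pattern that 26% of all tested genes had. Among the 365 negative genes, 338 (92.6%) had the reverse pattern, against 25.9% of all tested genes. The effects of rapamycin with and without palbociclib, which share no library, correlated across the 15308 genes with Pearson r = 0.153 and Spearman rho = -0.0372, and across the 9903 genes that averaged 3 or more in log2 CPM with r = 0.331. The effects of palbociclib with and without rapamycin correlated with r = 0.13 and rho = 0.215. These correlations are descriptions, since genes are not independent replicates and all contrasts share the level and depth of each gene.

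**Figure D1:**
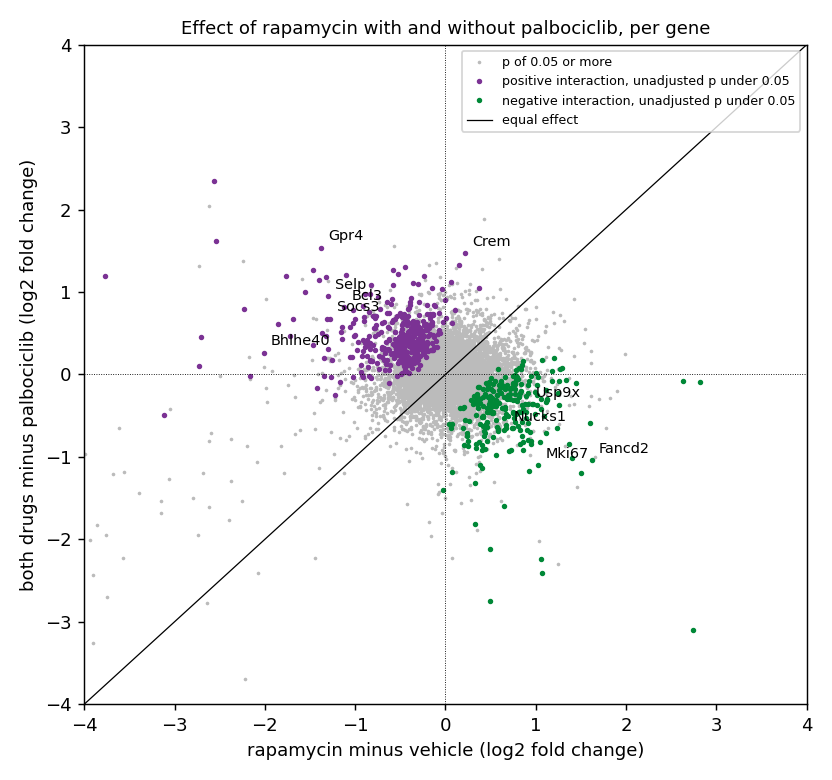
Log2 fold change of rapamycin over vehicle (x axis) against that of the combination over palbociclib (y axis), 1 point per gene that averaged 3 or more in log2 CPM, for the 9821 genes within 4 log2 units. Purple and green points have an unadjusted p under 0.05 for the interaction and lie away from the line of equal effect, mostly at upper left and lower right, with Bhlhe40, Selp and Gpr4 at upper left and Fancd2, Mki67 and Nucks1 at lower right.

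The 3 genes of smallest p were Bhlhe40, Selp and Gpr4. All 3 stood at an edgeR adjusted p of 0.051 and had low levels after rapamycin alone that were not seen when palbociclib was also given. Bhlhe40 encodes a basic helix-loop-helix transcriptional repressor that responds to cytokines, hypoxia and stress (ENSMUSG00000030103, GRCm38 chromosome 6, 108660629 to 108666925, plus strand). Its level was 47.4, 56.3, 51.9 and 53.2 CPM in the combination libraries, 53.9, 35.6, 46.6 and 37.8 in palbociclib, 17.9, 14.2, 11.5 and 22.5 in rapamycin, and 91.1, 67.3, 65.7 and 43.0 in vehicle libraries. All 4 rapamycin libraries lay below every library of the other groups, while combination and palbociclib libraries overlapped. The fold was 1.20 for the combination over palbociclib and 0.248 for rapamycin over vehicle, a log2 interaction of 2.28 ± 0.345 (SE). It was the 1 gene called for rapamycin against vehicle (edgeR adjusted p = 0.00721, 0.00653% of tested genes), and no gene was called for the combination against palbociclib (0%) or for palbociclib against vehicle (0%).

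Selp encodes P-selectin, an adhesion receptor of platelets and endothelium whose transcript is also known to be raised in HSCs of old mice (ENSMUSG00000026580, chromosome 1, 164115264 to 164150026, plus strand). Its level was 185, 210, 224 and 243 CPM in the combination, 105, 93.2, 107 and 141 in palbociclib, 65.9, 36.3, 75.2 and 70.6 in rapamycin, and 184, 201, 92.4 and 135 in vehicle libraries. All combination libraries lay above all palbociclib libraries, and all rapamycin libraries below all vehicle libraries. The fold was 1.93 under palbociclib and 0.405 without it, an interaction of 2.25 ± 0.351. Genes on the opposite strand overlap Selp, 2 of them among the tested genes, and whether reads were counted by strand is not given in the sources used here. Of the list of megakaryocyte and platelet markers, which holds Selp, 5 of 21 tested members had a positive interaction (median -0.61), so most of those markers had the opposite sign; their part in the result was not tested.

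Gpr4, a receptor that senses extracellular protons and signals through cyclic AMP, had the largest fold difference of the 3 (ENSMUSG00000044317, chromosome 7, 19212538 to 19224174, plus strand). Its level was 82.4, 106, 103 and 90.8 CPM in the combination, 23.2, 19.9, 38.1 and 50.2 in palbociclib, 28.3, 18.9, 15.7 and 21.5 in rapamycin, and 63.4, 79.3, 26.6 and 51.1 in vehicle libraries. The combination libraries lay above every library of the 3 other groups, and rapamycin and vehicle libraries overlapped only through vehicle 3. The fold was 2.91 for the combination over palbociclib and 0.384 for rapamycin over vehicle, an interaction of 2.92 ± 0.463. Gpr4 is also expressed by endothelial cells, and of 19 tested stromal and endothelial markers 3 had a positive and 16 a negative interaction (median -1.15). Among the 3 was the endothelial marker Pecam1, with a fold of 1.25 for the combination over palbociclib and 0.625 for rapamycin over vehicle. Its combination libraries (40.8 to 49.5 CPM) lay above all rapamycin libraries (22.0 to 35.6). The part of stromal and endothelial cells in the result was not tested.

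Seen from the other side, palbociclib added to rapamycin changed 5 genes by edgeR, 0.0327% of those tested. Bhlhe40 (log2 fold change 1.66, adjusted p = 0.0245), Selp (1.80, adjusted p = 0.0197) and Gpr4 (2.18, adjusted p = 0.0265) rose, as did Irf7, and Qk, an RNA-binding protein gene named here because it completes the 5, fell (-1.74, adjusted p = 0.0197). Palbociclib over vehicle gave -0.62 for Bhlhe40, -0.46 for Selp and -0.74 for Gpr4, with edgeR adjusted p of 0.439, 0.595 and 0.489.

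Next by p came Socs3 and Slc35f5, neither of which passed edgeR's test of the interaction, while DESeq2 called both (adjusted p = 5.24e-05 for each). Socs3 encodes the feedback inhibitor of gp130 and leptin receptor signalling that STAT3 induces (ENSMUSG00000053113, chromosome 11, 117966079 to 117970047, minus strand). Its level was 41.4, 41.8, 37.6 and 27.0 CPM in the combination, 28.7, 15.5, 22.1 and 26.1 in palbociclib, 18.9, 15.5, 18.3 and 14.9 in rapamycin, and 53.7, 31.4, 36.2 and 43.0 in vehicle libraries. Rapamycin and vehicle libraries did not overlap, and neither did palbociclib and vehicle libraries, each drug alone being lower than vehicle. Combination libraries lay above all rapamycin libraries and within the range of vehicle in 3 of 4. The interaction of Socs3 was 1.96 ± 0.333 (edgeR adjusted p = 0.086). Slc35f5, a member of a family of nucleotide sugar transporters, had 44.8, 49.3, 45.2 and 49.4 CPM in the combination, 34.5, 28.6, 37.5 and 27.2 in palbociclib, 23.4, 25.5, 27.7 and 24.7 in rapamycin, and 43.1, 54.0, 40.3 and 36.8 in vehicle libraries, with no overlap in either pair (interaction 1.34 ± 0.243, adjusted p = 0.135).

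The regions upstream of 2 of these genes are shown because a palindrome bound by STAT factors, TTCNNNGAA, occurs in both. The sequences are the 250 bases before the RefSeq transcript start on GRCm38.p6, written 5′ to 3′ on the gene's strand, with the palindrome in capitals. Gpr4 is chr7:19212288-19212537 on the plus strand and Socs3 is chr11:117969367-117969616 on the minus strand, where the gene model of GENCODE M21 reaches further upstream than RefSeq's.
Gpr4: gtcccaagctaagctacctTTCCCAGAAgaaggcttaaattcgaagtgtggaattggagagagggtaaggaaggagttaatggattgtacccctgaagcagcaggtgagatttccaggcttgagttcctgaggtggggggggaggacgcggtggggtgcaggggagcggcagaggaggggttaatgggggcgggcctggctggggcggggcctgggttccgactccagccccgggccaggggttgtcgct
Socs3: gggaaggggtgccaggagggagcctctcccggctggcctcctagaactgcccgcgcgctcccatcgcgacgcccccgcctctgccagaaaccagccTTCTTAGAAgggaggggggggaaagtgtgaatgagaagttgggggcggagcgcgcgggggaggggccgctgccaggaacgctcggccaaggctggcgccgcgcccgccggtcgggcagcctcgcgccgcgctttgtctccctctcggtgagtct

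The match begins 231 bases before the start of Gpr4 and 154 bases before that of Socs3. The palindrome reads the same on both strands, and it occurred in 7.02% of the 32851 RefSeq windows of this length. It occurred in 2 of 11 windows (18.2%) of the 9 matched among the 10 positive genes of smallest p, those of Gpr4 and Socs3. Among the 10 negative genes of smallest p the share was similar, with 1 of 6 windows (16.7%) of the 5 matched. The motif was chosen after the values were seen, and a match is a description of letters, not of binding.

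**Figure D2:**
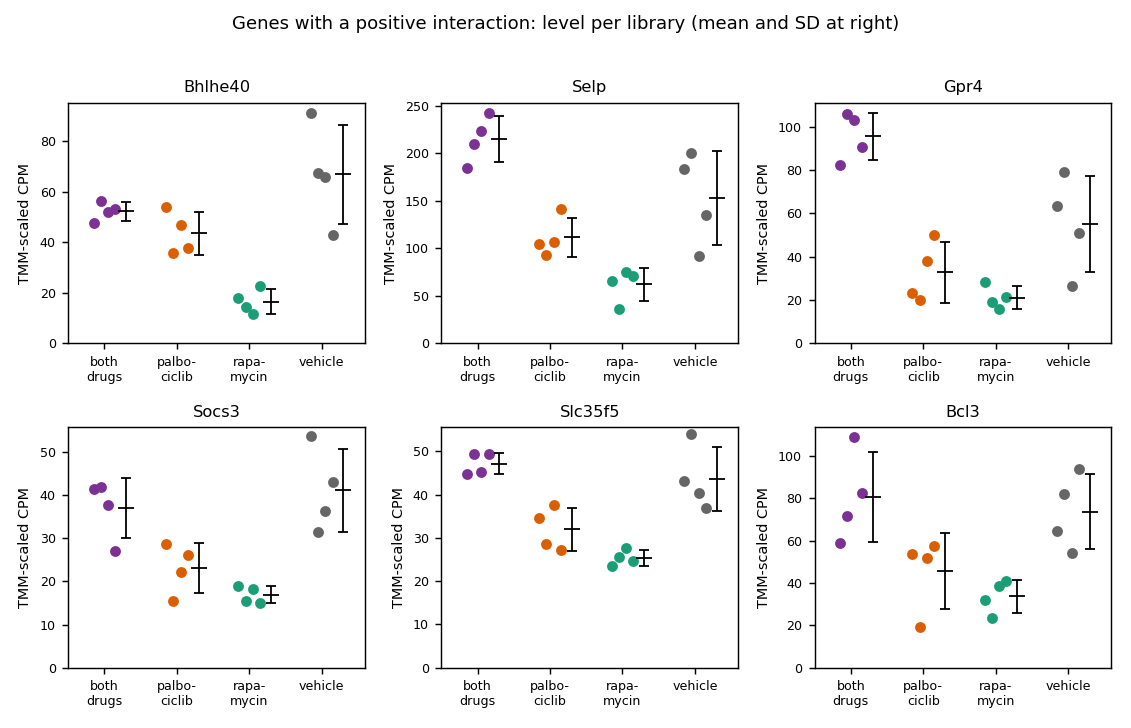
TMM-scaled CPM (y axis) of 6 genes with positive interaction in the 4 libraries of each group, with the group mean and SD beside the points. Rapamycin libraries are low in each panel, for Bhlhe40 between 11.5 and 22.5, while the combination mean is higher than the palbociclib mean in each panel.

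The other 5 of the 10 positive genes of smallest p held a cell cycle inhibitor, an enzyme of glycolysis and a regulator of NF-kB. None of the 5 passed edgeR's test (adjusted p between 0.404 and 0.429), while DESeq2 called each of them (adjusted p between 0.0114 and 0.0148). Cdkn1a encodes p21, the inhibitor of cyclin-dependent kinases that p53 induces and that restrains HSC division (ENSMUSG00000023067, chromosome 17, 29090976 to 29100727, plus strand). It had 192, 224, 230 and 198 CPM in the combination, 116, 108, 124 and 154 in palbociclib, 128, 80.1, 148 and 127 in rapamycin, and 190, 251, 127 and 192 in vehicle libraries. Combination libraries lay above all palbociclib and all rapamycin libraries, and rapamycin and vehicle overlapped (interaction 1.40 ± 0.294). Hk2, the inducible hexokinase that begins glycolysis, had 57.6, 59.5, 74.8 and 58.0 CPM in the combination, 53.2, 30.1, 34.1 and 35.5 in palbociclib, 45.9, 41.7, 49.1 and 42.5 in rapamycin, and 99.5, 85.3, 80.3 and 44.8 in vehicle libraries (interaction 1.5 ± 0.324). Bcl3, an atypical IkB protein that works with NF-kB p50 and p52 in the nucleus, had 58.9, 71.5, 109 and 82.6 CPM in the combination, 53.7, 19.1, 52.0 and 57.7 in palbociclib, 32.1, 23.7, 38.5 and 41.2 in rapamycin, and 64.5, 82.1, 54.4 and 93.9 in vehicle libraries. Both pairs of Bcl3 libraries were without overlap (interaction 1.94 ± 0.435). Ubac2, of the endoplasmic reticulum membrane, averaged 99.4 ± 13.8 CPM in the combination, 90.6 ± 8.19 in palbociclib, 74.1 ± 10.4 in rapamycin and 126 ± 7.96 in vehicle libraries (SD, n = 4). Lpcat3, an acyltransferase that makes polyunsaturated membrane phospholipids, averaged 119 ± 15.1 CPM in the combination, 88.6 ± 3.65 in palbociclib, 77.3 ± 7.56 in rapamycin and 106 ± 15.4 in vehicle libraries. Reads of Ubac2, Lpcat3 and Bcl3 may include reads of tested genes on the opposite strand that overlap them.

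A stricter description of reversal asks that the libraries of both pairs do not overlap and that the pairs point opposite ways. Of 15308 genes, 14 had this pattern (0.0915%), 11 with rapamycin below vehicle and the combination above palbociclib (0.0719%) and 3 the other way (0.0196%). Besides Lpcat3, the 6 named by the size of their interaction among the 11 were Selp, Bcl3, Slc35f5, Metrnl, Pip4p1 and Zdhhc24. Metrnl, a secreted protein of the meteorin family, averaged 70.4 ± 12.4 CPM in the combination, 45.8 ± 11.5 in palbociclib, 39.6 ± 2.48 in rapamycin and 54.8 ± 7.78 in vehicle libraries (SD, n = 4). Pip4p1, a phosphoinositide phosphatase of lysosomes, averaged 89.5 ± 9.87 CPM in the combination, 72.4 ± 1.81 in palbociclib, 74.0 ± 6.19 in rapamycin and 121 ± 33.7 in vehicle libraries, and overlaps a tested gene on the other strand. Zdhhc24, of the palmitoyltransferase family, averaged 41.8 ± 11.1 CPM in the combination, 27.1 ± 6.62 in palbociclib, 26.1 ± 4.95 in rapamycin and 33.8 ± 5.48 in vehicle libraries, with its highest rapamycin library at 30.3 and its lowest vehicle library at 30.7.

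The 10 negative genes of smallest p had higher mean levels after either drug alone than after vehicle or after the combination. None passed edgeR's test. Of those named below, DESeq2 called Nucks1 (adjusted p = 0.00718), Usp9x (0.0175), Fancd2 (0.0225), Kctd9 (0.0385) and Abcc5 (0.046). It did not call Hmgxb4, C2cd5, Cenpm or Sept7. The smallest edgeR p belonged to Nucks1, a chromatin-bound phosphoprotein with a role in DNA repair and cell cycle genes (ENSMUSG00000026434, chromosome 1, 131910534 to 131936321, plus strand). Its level was 73.2, 58.7, 64.6 and 69.7 CPM in the combination, 110, 122, 81.5 and 105 in palbociclib, 116, 127, 116 and 114 in rapamycin, and 95, 50.7, 89.5 and 61.9 in vehicle libraries. Combination libraries lay below all palbociclib libraries, and rapamycin libraries above all vehicle libraries (interaction -1.32 ± 0.265, edgeR adjusted p = 0.284). Usp9x, an X-linked deubiquitinase (ENSMUSG00000031010), had 18.1, 14.8, 18.2 and 18.2 CPM in the combination, 18.9, 22.6, 22.8 and 24.6 in palbociclib, 28.0, 33.7, 32.5 and 23.9 in rapamycin, and 19.3, 15.9, 11.0 and 16.4 in vehicle libraries, again without overlap in either pair (-1.28 ± 0.302, adjusted p = 0.464). Fancd2, the Fanconi anaemia protein monoubiquitinated at stalled replication forks (ENSMUSG00000034023), had the largest size among the 10, with an interaction of -2.66 ± 0.645 (adjusted p = 0.471). It had 8.86, 5.85, 20.7 and 16.6 CPM in the combination, 19, 29.7, 32.7 and 25.5 in palbociclib, 26.4, 18.7, 6.54 and 31.2 in rapamycin, and 5.51, 9.09, 4.34 and 8.04 in vehicle libraries. Palbociclib and vehicle libraries of Fancd2 did not overlap, while both pairs of the contrast did.

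Also among the 10, with adjusted p of 0.471 to 0.571, were Abcc5, an exporter of cyclic nucleotides (interaction -1.43), Kctd9 (-1.27), Hmgxb4 (-1.34), C2cd5, which acts in insulin-stimulated glucose transporter traffic (-0.97), Cenpm, of the centromere (-1.18), and Sept7, a septin of the cytoskeleton (-0.99). In 5 of these 6, Cenpm being the exception, all rapamycin libraries lay above all vehicle libraries. Picking genes by a small p of a contrast that holds this difference favours such a gap. The share of all tested genes with the gap was not counted. Cenpm averaged 22.5 ± 1.28 CPM in the combination, 37.8 ± 7.06 in palbociclib, 36.5 ± 5.42 in rapamycin and 27.1 ± 7.63 in vehicle libraries (SD, n = 4), and its combination libraries lay below all palbociclib and all rapamycin libraries. Esyt2, a tether between the endoplasmic reticulum and the plasma membrane, completed the 3 genes without overlap in both pairs, with an interaction of -0.82 ± 0.259.

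**Figure D3:**
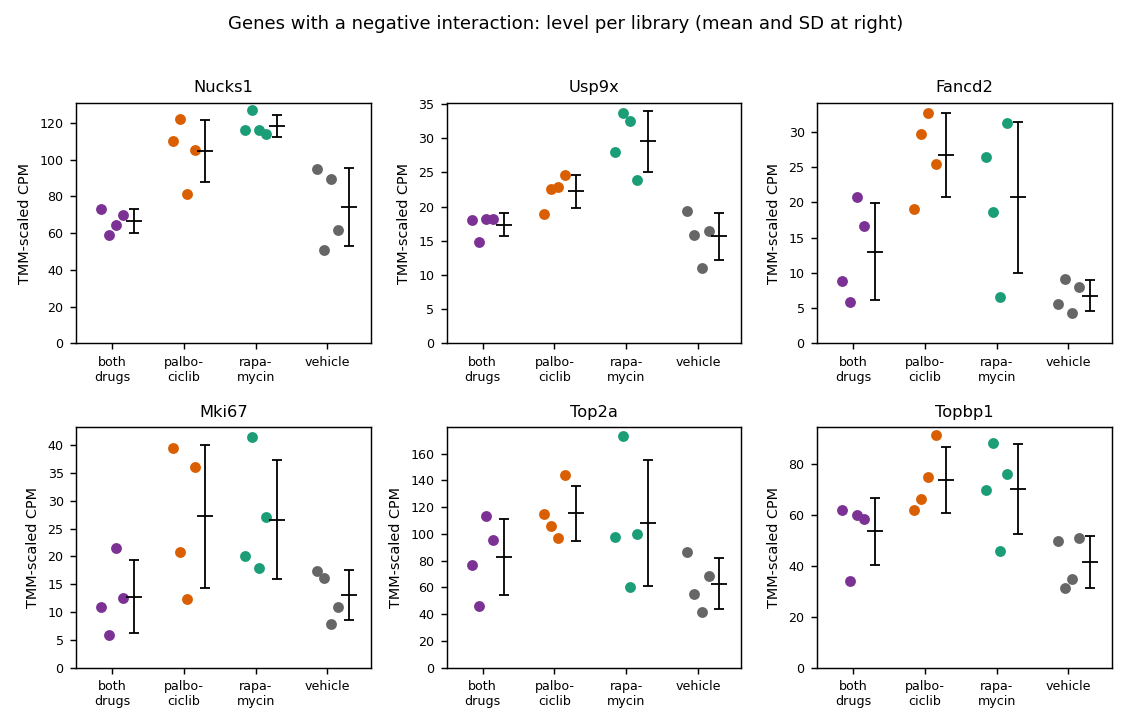
TMM-scaled CPM (y axis) of 6 genes with negative interaction in the 4 libraries of each group, with the group mean and SD beside the points. Palbociclib and rapamycin libraries are higher than combination and vehicle libraries on average in each panel, with rapamycin 3 low for Fancd2 at 6.54 CPM.

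Genes of mitosis, S phase and DNA repair were mostly on the negative side, while replication-dependent histone genes, with 19 of 40 positive and a median of -0.05, were not. All 40 tested genes of the G2/M phase and mitosis had a negative interaction, 0 of them called, with 12 at an unadjusted p under 0.05, where the background in this direction is 2.38%, and a median of -0.83, against 0.0083 over all genes. Their mean level was 4.98, 4.21, 5.72 and 5.42 log2 CPM in the combination, 6.10, 5.47, 5.76 and 5.84 in palbociclib, 5.13, 5.78, 5.01 and 5.60 in rapamycin, and 5.03, 4.70, 5.49 and 4.77 in vehicle libraries. Palbociclib libraries were the highest group and combination and vehicle libraries the lowest, and every pair overlapped, palbociclib and vehicle only through 5.47 in palbociclib 2 and 5.49 in vehicle 3. Under palbociclib the combination was lower in 40 of 40 members (median -0.60), and without it rapamycin was higher in 34 of 40 (median 0.33).

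Mki67, the proliferation antigen Ki-67 that coats mitotic chromosomes, had 11.0, 5.85, 21.6 and 12.5 CPM in the combination, 39.5, 20.8, 12.4 and 36.1 in palbociclib, 20.1, 41.4, 17.9 and 27.1 in rapamycin, and 17.4, 16.1, 7.84 and 11.0 in vehicle libraries. Rapamycin libraries lay above all vehicle libraries, while combination and palbociclib overlapped (interaction -2.12 ± 0.613, unadjusted p = 0.00319, adjusted p = 0.577). Anln, which scaffolds the contractile ring, had an interaction of -1.87 ± 0.535, Kif23, a kinesin of the central spindle, -1.60 ± 0.527, and Top2a, the topoisomerase that untangles sister chromatids, -1.26 ± 0.441. Top2a averaged 82.8 ± 28.6 CPM in the combination, 115 ± 20.2 in palbociclib, 108 ± 47.2 in rapamycin and 62.9 ± 19 in vehicle libraries (SD, n = 4).

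Neutrophil granule genes, whose precursors divide in the marrow, differed in the same direction. They made up 4.27% ± 2.91 of counts in the combination, 6.70% ± 3.85 in palbociclib, 4.54% ± 2.57 in rapamycin and 3.81% ± 2.5 in vehicle libraries (SD, n = 4), and 13 of 19 members had a negative interaction (median -0.52, which was -0.13 without combination 2 and -1.12 without combination 3). Combination 2, with the lowest G2/M mean, also had the lowest neutrophil mean of its group, at 7.52 log2 CPM. Palbociclib 2 likewise had the lowest G2/M mean (5.47) and neutrophil share (1.348%) of its group. The other groups differed. Vehicle 2, with the lowest G2/M mean of vehicle (4.70), had its highest neutrophil share (6.945%). In rapamycin the lowest G2/M mean was that of rapamycin 3 (neutrophil share 4.616%) and the lowest share that of rapamycin 1 (0.9032%). The part of neutrophils and their precursors in the result was not tested beyond the values that follow. With the neutrophil share and the B cell share as covariates the median of the G2/M list was -0.86, and without any single library it lay between -1.14 and -0.64.

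Upstream sequences of Mki67 and Top2a are shown because genes of this list are known targets of the DREAM and B-Myb complexes, which act through the element TTTGAA, and of NF-Y, which binds the CCAAT box. Both are the 250 bases before the RefSeq start on GRCm38.p6, at chr7:135716380-135716629 on the minus strand for Mki67 and chr11:99024190-99024439 on the minus strand for Top2a. Capitals mark TTTGAA and CCAAT on either strand.
Mki67: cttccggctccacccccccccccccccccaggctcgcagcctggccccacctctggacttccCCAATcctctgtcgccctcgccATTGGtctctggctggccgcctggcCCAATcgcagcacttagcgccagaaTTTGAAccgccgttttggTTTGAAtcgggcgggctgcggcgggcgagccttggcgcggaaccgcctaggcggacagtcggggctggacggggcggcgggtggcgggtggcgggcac
Top2a: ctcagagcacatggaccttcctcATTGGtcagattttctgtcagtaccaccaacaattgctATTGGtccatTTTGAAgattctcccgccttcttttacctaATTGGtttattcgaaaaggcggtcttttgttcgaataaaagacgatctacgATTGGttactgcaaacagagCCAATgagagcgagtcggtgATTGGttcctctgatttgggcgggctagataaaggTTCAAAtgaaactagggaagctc

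TTTGAA occurred 2 times in each, starting 116 and 98 bases before the start of Mki67 and 179 and 23 bases before that of Top2a, and CCAAT occurred 3 times in Mki67 and 6 times in Top2a. Among the 33 of 40 list genes with a RefSeq window, 42.4% held TTTGAA and 75.8% CCAAT, against 18.3% and 37.5% of all 27025 genes in the table. For the S-phase list these shares were 12.9% and 61.3% of 31 matched genes. The motifs were chosen after the values were seen and searched on both strands, and the 2 elements share no letters in Mki67 or Top2a.

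S-phase and replication genes had 30 of 38 negative interactions, 6 at an unadjusted p under 0.05 and 0 in the positive direction, with a median of -0.30 that was -0.20 without vehicle 2. Their mean was 6.62 ± 0.122 log2 CPM in the combination, 6.90 ± 0.0966 in palbociclib, 6.44 ± 0.151 in rapamycin and 6.38 ± 0.17 in vehicle libraries (SD, n = 4). All 4 palbociclib libraries lay above all combination and all vehicle libraries, while rapamycin and vehicle libraries overlapped. Palbociclib was higher than vehicle in 37 of 38 members (median 0.52), and the combination was higher than rapamycin in 30 of 38 (median 0.23). The median difference with palbociclib was thus smaller under rapamycin, with 0 members called for the interaction. Combination libraries (6.46 to 6.73) and rapamycin libraries (6.275 to 6.606) overlapped. Pole, a replicative polymerase and the member of smallest p, had an interaction of -1.43 ± 0.417. Tk1, thymidine kinase, averaged 60.4 ± 6.39 CPM in the combination, 95 ± 21.1 in palbociclib, 69.3 ± 13.6 in rapamycin and 66.6 ± 9.39 in vehicle libraries, with combination libraries below all palbociclib libraries. Dut, which removes dUTP, averaged 117 ± 12.0 CPM in the combination, 156 ± 20.8 in palbociclib, 116 ± 18.6 in rapamycin and 104 ± 14.3 in vehicle libraries, and palbociclib was again above the combination without overlap.

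DNA repair genes of the Fanconi and recombination pathways followed, with 29 of 35 negative, 3 at an unadjusted p under 0.05 against 1 positive, and a median of -0.45. Without combination 2 the median was -0.27. Besides Fancd2, Topbp1, which activates the checkpoint kinase ATR, averaged 53.6 ± 13.2 CPM in the combination, 73.7 ± 12.9 in palbociclib, 70.0 ± 17.7 in rapamycin and 41.6 ± 10.2 in vehicle libraries (SD, n = 4, interaction -1.21 ± 0.346). Rad50, of the MRN complex at double-strand breaks, had -1.06 ± 0.389. Fancf, of the Fanconi core complex, had the opposite sign (0.97 ± 0.43), with palbociclib libraries the lowest group at 16.4 ± 0.755 CPM.

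The targets of the drugs and their partners, 9 genes, gave no call, and Rb1 and Fkbp1a were the only ones among them with an unadjusted p under 0.05. Cdk4 had an interaction of 0.13 ± 0.178 (0.07 without rapamycin 2) and averaged 599 ± 73.5 CPM in the combination, 625 ± 43.4 in palbociclib, 476 ± 40.0 in rapamycin and 544 ± 21.6 in vehicle libraries (SD, n = 4). Cdk6 had 0.26 ± 0.462, which was 0.06 without rapamycin 3 and 0.60 without palbociclib 4, with 253 ± 44.8 CPM in the combination, 205 ± 85.0 in palbociclib, 134 ± 49.3 in rapamycin and 130 ± 50.5 in vehicle libraries. For the D cyclins that activate both kinases the interaction was 0.57 ± 0.493 for Ccnd1 (0.29 without vehicle 2), 0.0090 ± 0.326 for Ccnd2, whose sign changed with the settings, and 0.20 ± 0.337 for Ccnd3 (0.0023 without palbociclib 2). Rb1, which encodes RB, had -1.48 ± 0.551 (unadjusted p = 0.0162, adjusted p = 0.754), with 15.3, 13.5, 21.4 and 15.5 CPM in the combination, 31.6, 11.5, 19.5 and 25.6 in palbociclib, 12.1, 35.6, 21.2 and 33.7 in rapamycin, and 8.01, 13.8, 8.10 and 19.5 in vehicle libraries. Rbl1, the RB relative p107, had -0.91 ± 0.408 and E2f6, a repressor of the E2F family, -0.58 ± 0.237. The list of G1 cyclins, kinases and the RB axis as a whole had 14 of 27 positive members, 1 positive and 4 negative at an unadjusted p under 0.05, and a median of 0.0079 that was -0.12 without vehicle 3, while the difference of its group means was -0.17.

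Mtor had an interaction of -0.39 ± 0.486, which was -0.16 without vehicle 3 and -0.62 without rapamycin 3. Rptor, the subunit that recruits substrates to mTOR complex 1, had 0.30 ± 0.343, which was 0.19 without rapamycin 3 and 0.47 without rapamycin 2. Fkbp1a, which encodes the rapamycin-binding FKBP12, had 0.66 ± 0.269 (unadjusted p = 0.0258, adjusted p = 0.83) and averaged 380 ± 57.2 CPM in the combination, 288 ± 59.3 in palbociclib, 350 ± 87.6 in rapamycin and 419 ± 32.2 in vehicle libraries (SD, n = 4). Of 43 tested genes of the mTOR complexes and their regulators 25 were positive, Fkbp1a alone at an unadjusted p under 0.05, with a median of 0.11 that was 0.02 without vehicle 4. Sesn3, a stress-induced inhibitor of mTOR complex 1, averaged 10.2 ± 3.48 CPM in the combination, 7.10 ± 1.13 in palbociclib, 15.0 ± 6.81 in rapamycin and 23.6 ± 8.95 in vehicle libraries (interaction 1.17 ± 0.557, unadjusted p = 0.0518).

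Downstream of mTOR, glycolysis genes had positive interactions in 18 of 20 members, 3 of them at an unadjusted p under 0.05 where the background in this direction is 3.29%, with a median of 0.24. Their mean level was 8.05 ± 0.0707 log2 CPM in the combination, 7.90 ± 0.148 in palbociclib, 7.63 ± 0.13 in rapamycin and 7.76 ± 0.254 in vehicle libraries (SD, n = 4), so that combination libraries lay above all rapamycin libraries. Besides Hk2, Slc2a1, the glucose transporter GLUT1, had 1.08 ± 0.439 and Pfkl, the liver phosphofructokinase, 0.57 ± 0.248. Slc2a1 had 112, 112, 135 and 113 CPM in the combination, above all palbociclib libraries (78.6 to 89.9) and all rapamycin libraries (44.0 to 87.3), while vehicle libraries spread from 32.9 to 136. Amino acid and ATF4 response genes were positive in 15 of 24, with 2 at an unadjusted p under 0.05 and a median of 0.17, which was -0.05 without vehicle 4 and 0.37 without vehicle 3. Of them Nupr1, a stress-induced chromatin protein, averaged 68.1 ± 19.2 CPM in the combination, 60.5 ± 25.5 in palbociclib, 36.7 ± 11.1 in rapamycin and 87.9 ± 15.9 in vehicle libraries (interaction 1.43 ± 0.443). Slc3a2, the heavy chain of the leucine transporter, had 0.53 ± 0.209, with rapamycin libraries (239 to 360 CPM) below all vehicle libraries (366 to 445).

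Lysosome and autophagy genes, which TFEB activates when mTOR complex 1 is inhibited, were positive in 28 of 38 members. Of these, 4 had an unadjusted p under 0.05, where the background in this direction is 3.29%, and the list median was 0.12, which was 0.26 without rapamycin 3. Ctsd, the protease cathepsin D, had 0.62 ± 0.281, and the autophagosome proteins Map1lc3a and Gabarapl2 had 0.74 ± 0.281 and 0.53 ± 0.235. Ribosomal protein genes were positive in 70 of 88, 0 of them and 1 negative gene at an unadjusted p under 0.05, with a median of 0.16 that was 0.04 without vehicle 4 and 0.34 without vehicle 3.

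Mitochondrially encoded mRNAs, which carry subunits of the respiratory chain, were negative in 12 of 13, with 5 at an unadjusted p under 0.05 and a median of -1.10. Their mean was 7.21, 6.94, 6.41 and 7.23 log2 CPM in the combination, 7.20, 7.44, 7.13 and 7.30 in palbociclib, 7.50, 8.40, 6.16 and 7.93 in rapamycin, and 6.73, 6.83, 5.58 and 6.88 in vehicle libraries. The spread was widest in rapamycin libraries, and the median of the list was -0.63 without rapamycin 2 and -1.37 without rapamycin 3. Among the members, mt-Nd4 had -1.41 ± 0.459, mt-Nd1 -1.16 ± 0.42 and mt-Cytb -1.13 ± 0.478, the last being -0.63 without rapamycin 2. Nuclear genes of the respiratory chain had 30 of 55 positive and a median of 0.02.

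**Figure D4:**
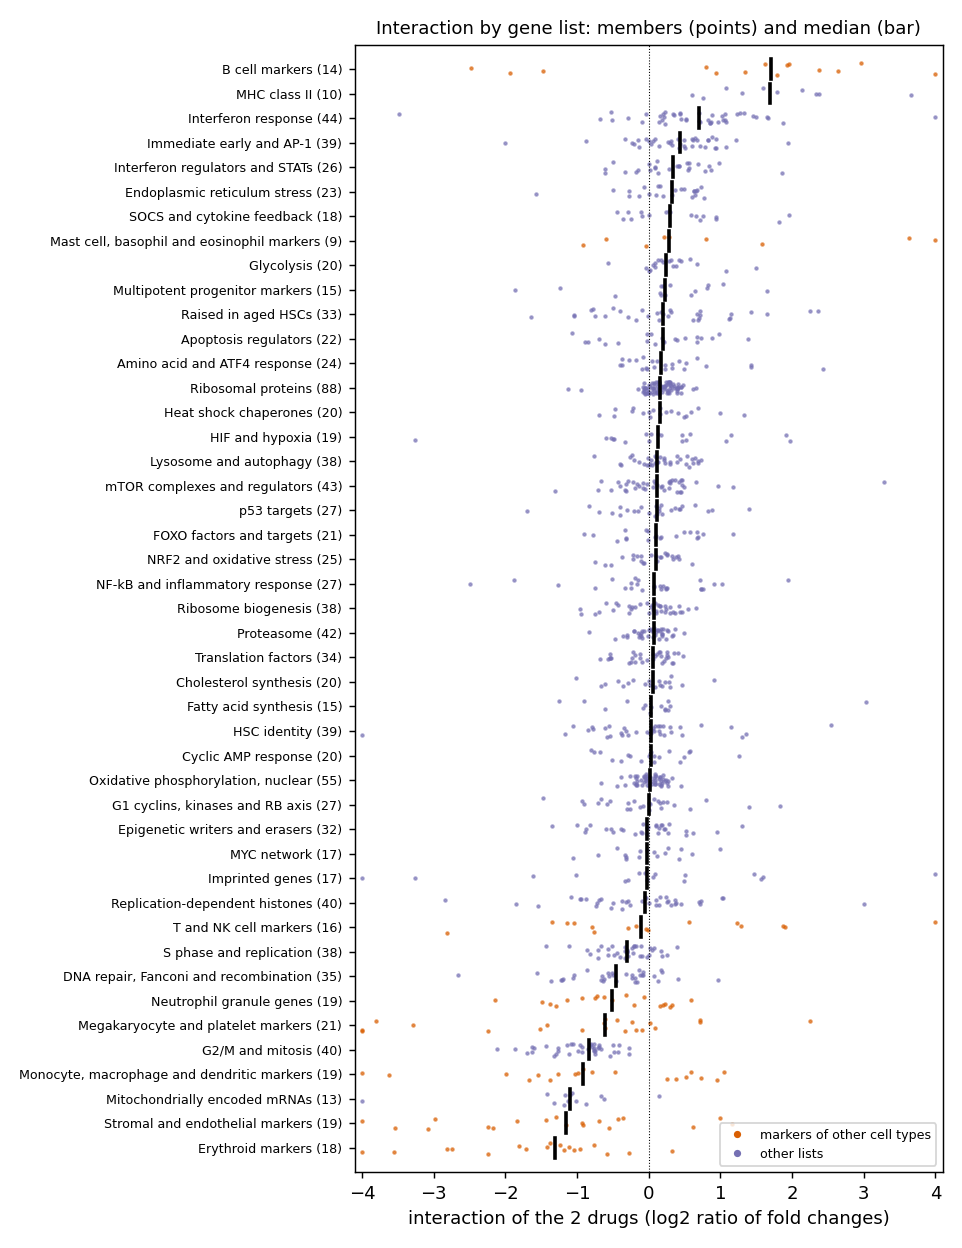
Interaction per gene (x axis, log2 ratio of fold changes) for the tested members of 45 gene lists, with the number tested in brackets and a bar at each list's median. Points beyond 4 log2 units are drawn at the edge. G2/M genes all lie left of 0, most interferon and immediate early genes lie right of 0, and the lists with the lowest and highest medians, erythroid and B cell markers, are markers of other cells.

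Interferon response genes, the antiviral programme, were on the positive side, with 37 of 44 members, 8 at an unadjusted p under 0.05 against 1 negative, and a median of 0.70. Their mean level was 5.03, 4.52, 5.72 and 5.58 log2 CPM in the combination, 4.02, 4.02, 5.38 and 5.18 in palbociclib, 4.32, 3.95, 3.85 and 4.13 in rapamycin, and 4.04, 4.44, 3.92 and 4.27 in vehicle libraries. Combination libraries lay above all rapamycin and all vehicle libraries, and palbociclib libraries were split into 2 low and 2 high ones. The median of the list was 0.46 without palbociclib 1 and 0.92 without palbociclib 3, and 0.46 with the blood cell shares as covariates. Lgals3bp, a secreted glycoprotein induced by interferon, had 387, 428, 461 and 409 CPM in the combination, 242, 274, 249 and 309 in palbociclib, 219, 146, 199 and 241 in rapamycin, and 241, 375, 214 and 255 in vehicle libraries. Its combination libraries lay above every other library (interaction 1.08 ± 0.26, edgeR adjusted p = 0.471). Oas1a, which makes the activator of RNase L and shares sequence with other Oas1 genes, had 1.23 ± 0.459, and Gbp6, a guanylate-binding protein, had the opposite sign at -3.48 ± 1.02, with 1.45 to 4.21 CPM in the combination, 3.39 to 46.9 in palbociclib, 12.1 to 31.1 in rapamycin and 3.41 to 15.3 in vehicle libraries. Without palbociclib 2 it was -2.13.

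Regulators of interferon and cytokine signalling were positive in 20 of 26, with 4 at an unadjusted p under 0.05 and a median of 0.34 that was 0.10 without vehicle 4 and 0.07 with the covariates. Irf7, the master regulator of type I interferon, had 139, 87.5, 275 and 244 CPM in the combination, 67.0, 48.1, 152 and 113 in palbociclib, 38.0, 31.2, 34.8 and 29.4 in rapamycin, and 41.7, 71.2, 42.5 and 92.4 in vehicle libraries. It rose when palbociclib was added to rapamycin (log2 fold change 2.48, edgeR adjusted p = 0.0361), with an interaction of 1.86 ± 0.54 that did not pass. Stat3, the factor upstream of Socs3, had 346, 378, 431 and 361 CPM in the combination, 274, 217, 276 and 293 in palbociclib, 200, 201, 252 and 265 in rapamycin, and 237, 355, 198 and 380 in vehicle libraries. Combination libraries of Stat3 lay above all palbociclib and all rapamycin libraries, and vehicle libraries overlapped every group (interaction 0.87 ± 0.274). Irf3 had 0.57 ± 0.206 and Ifngr2, a chain of the interferon gamma receptor, 0.99 ± 0.361.

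SOCS and cytokine feedback genes had 12 of 18 positive members, 5 at an unadjusted p under 0.05 and none negative, with a median of 0.29. Combination libraries had list means of 5.09 to 5.18 log2 CPM, palbociclib 4.82 to 4.99, rapamycin 4.92 to 5.07 and vehicle 4.78 to 5.30, so that the combination lay above both single drugs without overlap. Without rapamycin 4 the median was 0.49. Pim2, a kinase that STAT factors induce and that sustains survival and translation, had 114, 175, 144 and 161 CPM in the combination, 48.3, 54.1, 93.0 and 106 in palbociclib, 54.6, 48.7, 72.3 and 41.8 in rapamycin, and 103, 102, 53 and 130 in vehicle libraries (interaction 1.82 ± 0.408, edgeR adjusted p = 0.429). Its relative Pim1 had 0.94 ± 0.336 and the phosphatase gene Ptpn1 0.71 ± 0.298. NF-kB and inflammatory genes were not one-sided as a list, with 15 of 27 positive, a median of 0.08 that was -0.13 without combination 3, and a difference of group means of -0.11, but 4 positive members had an unadjusted p under 0.05 and none negative. These were Bcl3, Nfkb1, which encodes p105 and p50 (0.90 ± 0.328), Rela, which encodes p65 (0.72 ± 0.274), and the adhesion molecule gene Icam1 (0.76 ± 0.356).

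Immediate early and AP-1 genes were positive in 30 of 39, 7 at an unadjusted p under 0.05 and none negative, with a median of 0.44. Their mean was 5.72 ± 0.115 log2 CPM in the combination, 5.53 ± 0.203 in palbociclib, 5.82 ± 0.151 in rapamycin and 6.03 ± 0.113 in vehicle libraries (SD, n = 4). Combination and palbociclib libraries lay below all vehicle libraries, and the combination had a higher mean than palbociclib while rapamycin had a lower mean than vehicle. Dusp2, a nuclear MAP kinase phosphatase, had 90.7, 103, 79.9 and 90.8 CPM in the combination, 53.6, 54.7, 50.6 and 49.1 in palbociclib, 89.1, 63.1, 77.6 and 69.5 in rapamycin, and 72.0, 144, 64.6 and 115 in vehicle libraries, palbociclib being below all the rest (interaction 1.21 ± 0.305). Junb had 0.78 ± 0.266, Jun 0.72 ± 0.257 and the stress gene Gadd45g 1.08 ± 0.416.

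Cyclic AMP response genes had 12 of 20 positive members, 3 positive and 1 negative at an unadjusted p under 0.05 and a median of 0.03 that was -0.12 without rapamycin 2. Crem, an activator and repressor gene of that pathway, had overlapping rapamycin and vehicle libraries. It had 223, 364, 333 and 348 CPM in the combination, 77.7, 127, 131 and 122 in palbociclib, 201, 201, 207 and 170 in rapamycin, and 159, 267, 97.4 and 150 in vehicle libraries. The fold was 2.77 for the combination over palbociclib, without overlap, and 1.16 for rapamycin over vehicle, an interaction of 1.26 ± 0.359 (adjusted p = 0.572). Prkar1a, the regulatory subunit of protein kinase A, had 0.43 ± 0.183, and Pde4b, which degrades cyclic AMP, 0.56 ± 0.246.

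**Figure D5:**
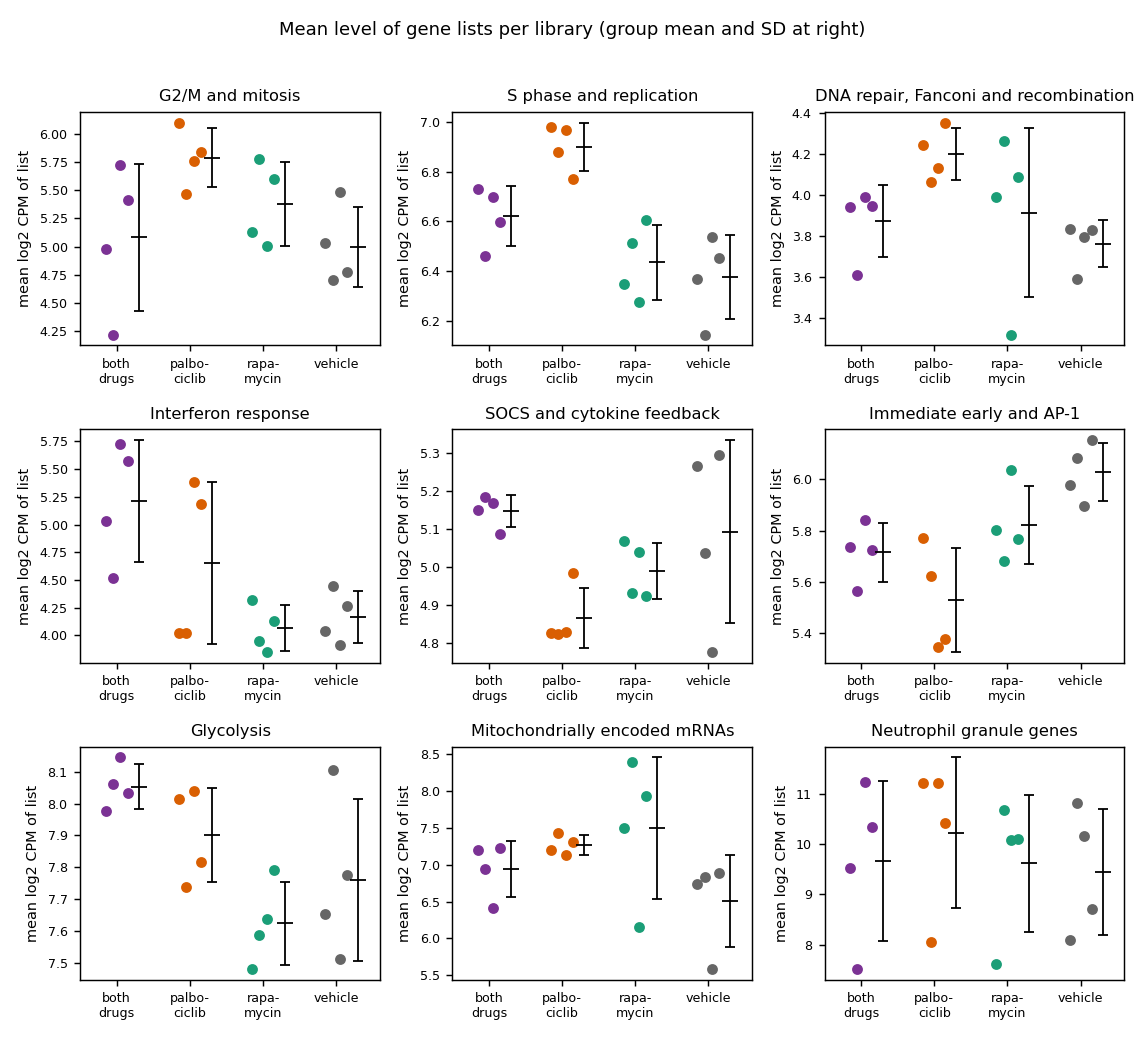
Mean log2 CPM (y axis) of the tested members of 9 lists in the 4 libraries of each group, with the group mean and SD beside the points. SOCS and cytokine feedback genes are higher with both drugs than with either drug alone, interferon genes split palbociclib libraries into 2 low and 2 high ones, and neutrophil granule genes range from 7.52 to 11.2 within the combination group.

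HSC identity genes showed no common direction, with 22 of 39 positive, 4 positive and 1 negative at an unadjusted p under 0.05, a median of 0.04 that was -0.18 without vehicle 1, and a difference of group means of -0.11. Ly6a, which encodes the Sca-1 antigen of the sort gate and is induced by interferon, had 500, 619, 793 and 705 CPM in the combination, 172, 157, 477 and 379 in palbociclib, 204, 191, 158 and 139 in rapamycin, and 200, 525, 90.3 and 1010 in vehicle libraries. Combination libraries lay above all palbociclib and all rapamycin libraries, and vehicle libraries spanned the range of every group (interaction 2.54 ± 0.754, edgeR adjusted p = 0.588). Procr, the EPCR receptor of long-term HSCs, had 1.3 ± 0.468 and averaged 133 ± 27.3 CPM in the combination, 70.1 ± 24.7 in palbociclib, 101 ± 19.1 in rapamycin and 131 ± 60.8 in vehicle libraries (SD, n = 4). Slamf1 had 1.15 ± 0.484 and Hoxb5, a factor that marks long-term HSCs, 1.35 ± 0.619. Genes raised in aged HSCs had 20 of 33 positive members, 5 positive and 1 negative at an unadjusted p under 0.05, with a median of 0.20 that was 0.04 without vehicle 2 and 0.41 without vehicle 4. Gpr183, an oxysterol receptor on that list, had 9.85 to 12.6 CPM in 3 vehicle libraries and 108 in vehicle 4, and its interaction of 2.36 ± 0.905 was 0.70 without vehicle 4.

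The 4 list medians farthest from 0 were those of B cell markers, MHC class II genes, erythroid markers and stromal markers, and each changed by more than 1.5 times without a single library. Erythroid markers were negative in 17 of 18 (median -1.3, which was -0.19 without palbociclib 1), with 3 at an unadjusted p under 0.05. Car2, a carbonic anhydrase that HSCs and progenitors also express, had 618 to 937 CPM in the combination, 586 to 2150 in palbociclib, 1610 to 2100 in rapamycin and 477 to 1670 in vehicle libraries, and Gata1, the erythroid and megakaryocytic factor, had -1.04 ± 0.481. Of megakaryocyte and platelet markers, 5 were negative and 1 positive at an unadjusted p under 0.05, with a median of -0.61 that was -0.34 without palbociclib 1. Ppbp, a platelet chemokine, had 14.1 to 34.4 CPM in 3 rapamycin libraries and 711 in rapamycin 3, with an interaction of -5.84 that was -2.65 without that library. Stromal and endothelial markers were negative in 16 of 19 (median -1.15, which was -0.54 without rapamycin 3 and -1.80 without combination 1), and the fat cell hormone Adipoq had 0.0681 to 5.86 CPM in the combination, 2.42 to 11.6 in palbociclib, 4.35 to 33.3 in rapamycin and 0.661 to 5.77 in vehicle libraries. B cell markers had a median of 1.71 that was -1.68 without vehicle 4, and Igkc, an immunoglobulin constant region, had 4.42 to 3190 CPM in the combination, 135 to 4790 in palbociclib, 10.8 to 579 in rapamycin and 852 to 20800 in vehicle libraries, the highest being vehicle 4. MHC class II genes, which present antigen on B cells and other immune cells, were positive in 10 of 10, with a median of 1.69 that was -0.44 without vehicle 4. T and NK cell markers had 6 of 16 positive members and a median of -0.10 with a difference of group means of 0.47, and the median was 2.68 without palbociclib 1 and -1.09 without vehicle 4. Gzmb, a cytotoxic protease, had 4.15 to 17.5 CPM in the combination, 0.882 to 5.34 in palbociclib, 0 to 2.31 in rapamycin and 2.24 to 13.1 in vehicle libraries. The covariate values given for the G2/M list and the interferon lists used the neutrophil share and the B cell share only. No covariate stood for erythroid, platelet, stromal, T or NK cells. The part of any of these cells in the interactions above was not tested beyond those values.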

How the data were processed

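RNA of 16 libraries of sorted mouse HSCs, 4 per group, was sequenced after low-input amplification. Per the submitters' processing notes, STAR 2.5.3a, RSEM 1.3.0, SAMtools 1.3 and the mm10 build were used. Neither the annotation release nor strand use in counting is given in the sources used here. The deposited expected counts, estimated per gene by the authors, were already whole, so rounding changed none of them. The deposited TPM values, on which log2(TPM + 1) was computed, sum to 999999 to 1000001 per library and served as an alternative only. All sample columns were mapped (0 unmapped).

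Genes were kept by filterByExpr (minimum count 10, minimum total 15), which kept 99.5% to 99.9% of counts. Factors from TMM ran from 0.889 to 1.14. The interaction was tested with edgeR 4.0.16 (R 4.3.3) by the quasi-likelihood test over all 16 libraries with group means and no covariate, 12 residual degrees of freedom, a biological coefficient of variation of 55.8% and Benjamini-Hochberg adjustment over 15308 genes. CPM are TMM-scaled, log2 levels use a prior count of 2, and SE is that of the log2 interaction. It was derived from the test, as the size of the interaction divided by the square root of the quasi-likelihood F. Alternatives used limma 3.58.1 and DESeq2 1.42.0, other normalizations and filters, log2 TPM, the neutrophil and B cell shares as covariates, a replicate block and leaving out libraries. The edgeR step was tested on simulated counts, with 50 genes changed at each size. It recovered 0% of interactions of 1.5-fold, 4% of 2-fold, 38% of 4-fold and 60% of 8-fold. A gene without a call may therefore still have an interaction. Replicate numbers were not used in the main fit, and whether they pair the libraries is not settled. Within groups no pair of libraries agreed within sampling noise.

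Symbols were given for 50376 IDs, and 310 without one held at most 0.114% of counts. Coordinates are GENCODE M21 (GRCm38), upstream sequences RefSeq (GRCm38.p6). Named genes are the 10 of smallest p per direction that averaged 3 or more in log2 CPM, up to 4 members of smallest p per described list, up to 6 per direction whose groups do not overlap in opposite ways, and 9 drug targets, leaving out predicted genes and immunoglobulin segments. The 45 lists (1249 genes, 1188 tested) and the contrast were chosen with earlier results of these data known. Of the 45 lists 25 are described under every alternative, histone and nuclear respiratory chain genes are given by their counts alone, and the list figure shows all. Some genes that this rule names are not reported here.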

Additional observations from a re-analysis of the deposited data

Results flagged for a closer look

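Of 196 groups of 4 libraries examined (named genes and list means), 14 (7.14%) held a library standing apart from the other 3 by a gap that, as a share of the group's range, exceeded Dixon's 95% critical value, where chance gives about 1 in 20. Hk2 had 74.8 CPM in combination 3, against 57.6 to 59.5 in the other combination libraries. Bcl3 had 19.1 CPM in palbociclib 2, against 52.0 to 57.7 in the others of that group. Zdhhc24 had 42.0 CPM in vehicle 3, against 30.7 to 31.6. Nucks1 had 127 CPM in rapamycin 2, against 114 to 116. Combination 2 was low for Usp9x, at 14.8 CPM against 18.1 to 18.2, and for Esyt2, at 39.3 CPM against 50.7 to 51.9.

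Among list means in log2 CPM, DNA repair genes stood at 3.61 in combination 2, against 3.94 to 3.99 in the other combination libraries, and at 3.59 in vehicle 2, against 3.79 to 3.83 in the other vehicle libraries. G1 and RB axis genes stood at 5.28 in palbociclib 2, against 5.51 to 5.54. SOCS and cytokine feedback genes stood at 4.99 in palbociclib 4, against 4.82 to 4.83. Mitochondrially encoded mRNAs stood at 5.58 in vehicle 3, against 6.73 to 6.88. Megakaryocyte and platelet markers stood at 5.20 in vehicle 4, against 5.80 to 5.90, and MHC class II genes at 10 in vehicle 4, against 5.91 to 6.29. T and NK cell markers stood at 3.30 in palbociclib 1, against -0.03 to 0.34 in the other palbociclib libraries.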

How the results depend on the processing

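With edgeR and the planned settings no gene was called, with 868 at an unadjusted p under 0.05. RLE factors gave 3 calls, no filter 4, a filter of 1 CPM in 8 libraries 3, robust edgeR 3, DESeq2 34, voom with quality weights 8 and the fit without the 3 libraries of lowest correlation 3. Leaving out single libraries gave 0 to 5 calls (5 without vehicle 3, 1 each without vehicle 4 and without rapamycin 4). The fit with the replicate block gave 0 calls and a lowest adjusted p of 0.179. After group means were subtracted, correlations between libraries of the same number in different groups ran from -0.21 to 0.348 (median 0.0422). Those of different numbers ran from -0.388 to 0.308 (median -0.0195), and 8 of 16 libraries correlated best with their own number. Whether the numbers mark pairs is not settled by these values, and the main fit did not use them. The 14 genes whose groups did not overlap in opposite ways became 7 on the log2 TPM scale, 119 without the 3 libraries and 18 to 51 without single libraries, where fewer libraries make non-overlap easier by construction. Bhlhe40 was called under 10 of 29 alternatives (adjusted p 1.81e-06 to 0.181), Gpr4 under 8 of 29 and Selp under 8 of 28. The Ccnd2 interaction turned negative with upper quartile factors (-0.0108), no filter (-0.0026) and quality weights (-0.02535), and ran from -0.17 to 0.27 without single libraries; the cause was not tested. Over 29 alternatives (28 for neutrophil, B, T and NK cell markers) the list medians that changed sign were those of the G1 and RB axis (21), HSC identity (12), T and NK cells (10), NF-kB (8), cyclic AMP (8), ATF4 (3), B cells (3), MHC class II (3), mTOR (1) and neutrophils (1).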
